A study of Rattus norvegicus with 8 samples.

Results

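Sgk1 and Errfi1 are a pair of early stress-hormone target genes, and their transcripts were followed here in rat whole brain over a single isoflurane exposure. They are 2 of the 4736 genes that the array reads under a single symbol. All probe sets that the platform's annotation table assigns to either gene symbol were taken, which gave 4 of the 8740 that are not array controls, 1 for Sgk1 (L01624_at) and 3 for Errfi1 (rc_AI169756_s_at, X07266cds_s_at and M23572_at). The genes were chosen with their values on these arrays known, so their differences between groups are given as a description and carry no test. The 8 samples were total RNA of whole brain from intubated rats, each on 1 short-oligonucleotide array. The 3 control rats breathed isoflurane, a volatile anaesthetic, for 3 min and were perfused at once with ice-cold saline. A group of 2 rats received 2% isoflurane for 1 hr, and a group of 3 rats received 2% isoflurane for 2 hr. Each sample is taken as 1 rat, since the labels do not number the animals. The labels do not state how the exposed brains were taken, nor the strain, age or sex of the rats. Every rat was thus intubated and anaesthetised, the controls briefly, and no untreated brain was analysed here.

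Sgk1 encodes the serum- and glucocorticoid-regulated kinase 1, an AGC-family protein kinase close to Akt that is switched on by phosphatidylinositol 3-kinase signalling through Pdpk1 and the mTOR complex that contains Rictor. It acts on the ubiquitin ligase Nedd4l, on Ndrg proteins, on FoxO factors and on several ion channels and transporters. Errfi1 encodes a cytoplasmic adaptor, also called Mig6 or RALT, that binds the activated EGF receptor kinase and damps its signal as negative feedback. Glucocorticoid hormone raises the transcripts of both genes within a short time in many tissues, through a hormone receptor (Nr3c1) that binds DNA at glucocorticoid response elements, and both also respond to other stimuli such as growth factors and osmotic or mechanical stress.

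The RefSeq promoter table, build GRCr8, held windows of 250 bases before to 50 bases after a transcript start for both genes, 3 for Sgk1 and 1 for Errfi1. The third Sgk1 window and the Errfi1 window are shown because they have a TATA box close to the start and a similar base composition (66.0% and 67.3% G or C, against 40.7% and 51.7% in the first and second Sgk1 windows). Capitals mark the TATA box TATAAA and, in Errfi1, the CGTCA that is the other strand of the cyclic AMP response core TGACG.
Sgk1, chr1:24804782-24805081, minus strand: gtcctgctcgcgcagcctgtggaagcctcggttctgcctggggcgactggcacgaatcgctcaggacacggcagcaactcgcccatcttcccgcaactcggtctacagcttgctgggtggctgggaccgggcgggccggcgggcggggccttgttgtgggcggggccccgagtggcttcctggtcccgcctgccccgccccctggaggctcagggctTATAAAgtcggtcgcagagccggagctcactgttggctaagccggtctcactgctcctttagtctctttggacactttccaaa
Errfi1, chr5:166606591-166606890, plus strand: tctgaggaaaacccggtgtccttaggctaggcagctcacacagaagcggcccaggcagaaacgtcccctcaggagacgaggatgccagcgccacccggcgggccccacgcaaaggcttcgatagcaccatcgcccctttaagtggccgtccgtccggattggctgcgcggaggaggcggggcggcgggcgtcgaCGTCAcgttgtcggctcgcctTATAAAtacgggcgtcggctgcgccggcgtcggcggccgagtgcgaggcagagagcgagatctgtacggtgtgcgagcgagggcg
The TATA box began 33 bases before the start in this Sgk1 window and 35 bases before it in Errfi1, and that of the first Sgk1 window began 55 bases before its start. TATAAA on either strand was present in 14.2% of all 33469 windows of this length. The second Sgk1 window held no match to TATAAA on either strand. The CGTCA of Errfi1 began 56 bases before the start, and TGACG on either strand was present in 21.2% of all windows. GC boxes (GGGCGG on either strand, in 33.1% of all windows) were found 4 times in the third Sgk1 window, 2 times in the second and 1 time in the Errfi1 window. The Errfi1 window also held CCAAT on the minus strand (either strand in 37.5% of all windows). The full glucocorticoid response element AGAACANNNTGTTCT, which reads alike on both strands, occurred in 5 of all windows and in none of these 4. Its 6-letter core AGAACA, searched on both strands and contained in the full element, was present in 20.7% of all windows and in none of these 4. These are letter matches in short windows only.

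Sgk1 was higher on every array of the longer exposures than on any control array, and higher after 2 hr than after 1 hr. Its deposited intensity was 87.9, 134.4 and 79.3 on control replicates 1 to 3, 255.9 and 202.1 on 1 hr replicates 1 and 2, and 391.3, 361.0 and 322.8 on 2 hr replicates 1 to 3. The 3 groups stood in the order of exposure with no overlap, and control replicate 2 stood well above the other controls. On the log2 scale Sgk1 averaged 6.61 ± 0.40 (SD, n = 3) in controls, 7.83 ± 0.24 (SD, n = 2) after 1 hr and 8.48 ± 0.14 (SD, n = 3) after 2 hr.

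**Figure D1:**
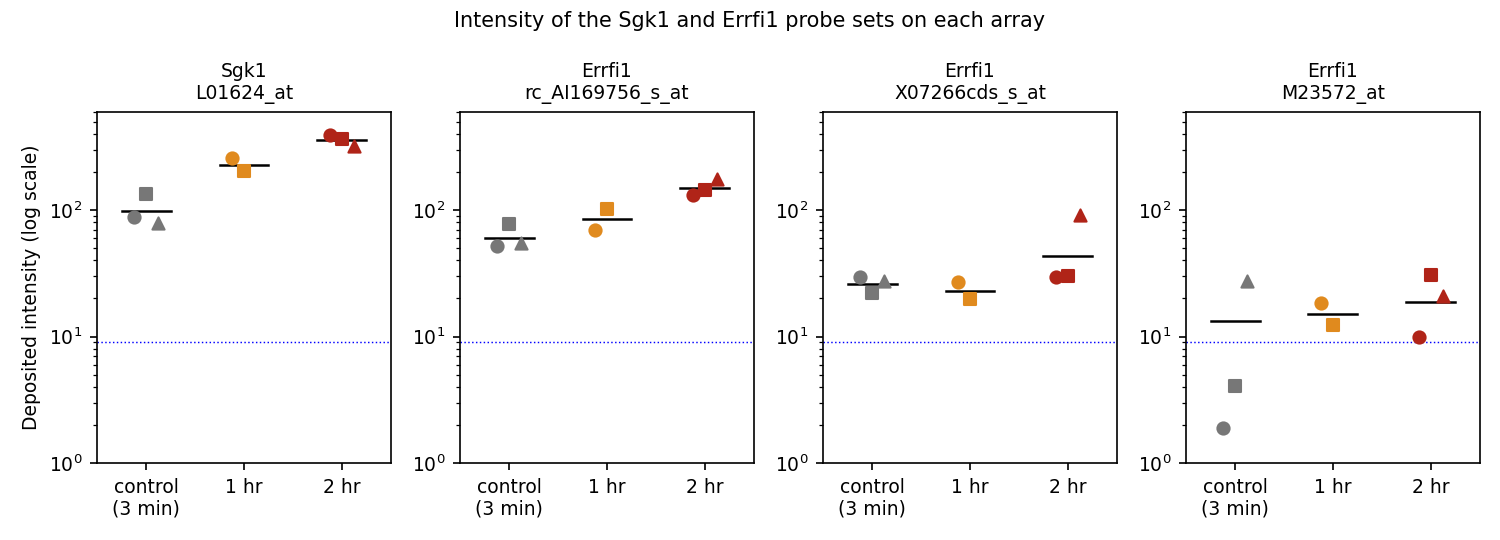
Deposited intensity on a log axis of the Sgk1 probe set and the 3 Errfi1 probe sets, with arrays grouped as control (3 min), 1 hr and 2 hr of isoflurane. Each point is an array (circle, square and triangle for replicates 1, 2 and 3), black bars are group means of the log2 values and the dotted line is the floor of 9.1. Sgk1 steps up from group to group without overlap, rc_AI169756_s_at has its 3 highest arrays in the 2 hr group, and M23572_at has 2 control arrays under the floor.

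After 2 hr the Sgk1 signal was 3.65-fold that of controls, a log2 difference of 1.87 (SE 0.278). Each of the 9 pairings of a 2 hr array with a control array gave a higher 2 hr value, between 2.40-fold and 4.93-fold. After 1 hr it was 2.32-fold that of controls, a log2 difference of 1.22 (SE 0.311), and all 6 pairings were higher, between 1.5-fold and 3.23-fold. Between 1 hr and 2 hr the difference was smaller over all arrays. There 2 hr stood 1.57-fold above 1 hr, a log2 difference of 0.65 (SE 0.311), and the closest pairing differed only 1.26-fold. Without the 3 arrays of highest top intensity (2 hr replicate 3, 1 hr replicate 1 and control replicate 3) both steps were of about the same size, 0.89 for 1 hr against control and 0.90 for 2 hr against 1 hr. The 1 hr and the 2 hr comparison share the control arrays, so these differences are not independent of each other.

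Sgk1 held the 9th highest log2 difference of the 7770 probe sets tested between 2 hr and control, and the 124th between 1 hr and control. As background, the groups did not overlap, with the longer exposure higher, for 2.9% of all probe sets between 2 hr and control, 7.54% between 1 hr and control and 5.98% between 2 hr and 1 hr. The full order of control below 1 hr below 2 hr, with no overlap anywhere, was met by 4 probe sets, 0.0515% of those tested. Of these, 3 also had a log2 difference of at least 1 between 2 hr and control, as 1.98% of all probe sets did. They were Sgk1, Psat1, the phosphoserine aminotransferase of serine synthesis (rc_AI230228_at, 1.19), and rc_AI639338_at (1.18), which the annotation table does not name. Psat1 and rc_AI639338_at were picked out after their values were seen.

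**Figure D2:**
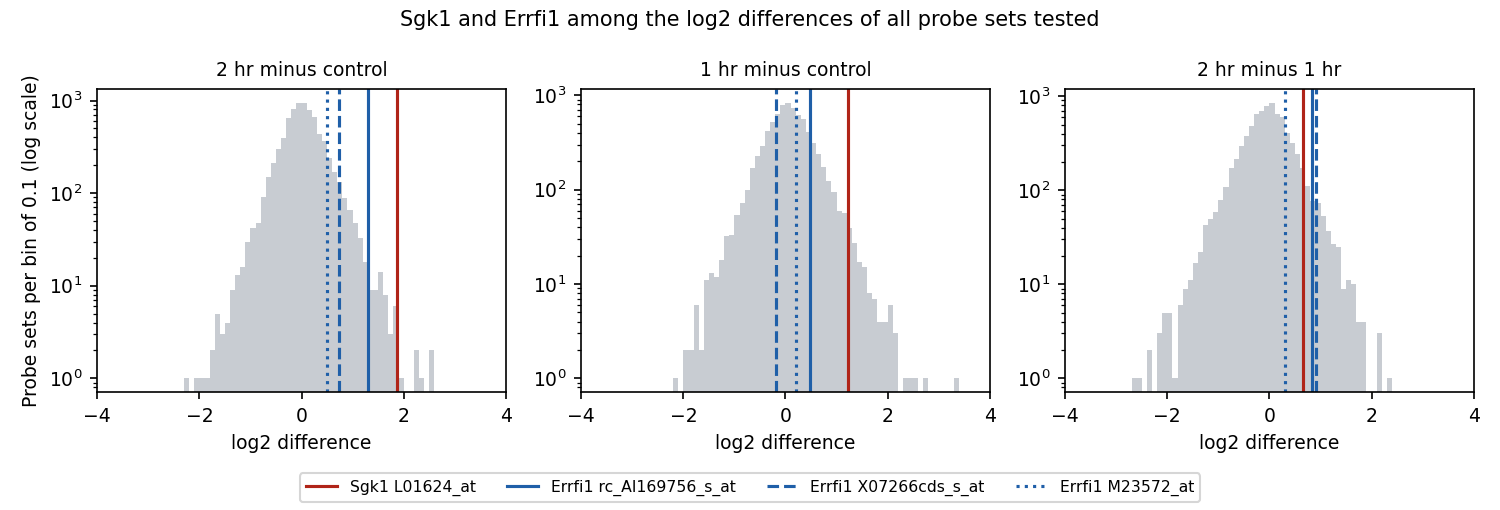
Histograms of the log2 differences of all 7770 probe sets tested, in bins of 0.1 and with a log axis for the number of probe sets, for 2 hr minus control, 1 hr minus control and 2 hr minus 1 hr. Vertical lines mark Sgk1 (red) and the 3 Errfi1 probe sets (blue). Sgk1 lies at 1.87, 1.22 and 0.65 in these panels and the brightest Errfi1 probe set at 1.31, 0.48 and 0.83.

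The position of Sgk1 among all probe sets of the same array, which no common scaling factor of an array can change, gave the same order. It lay between the 65.3 and 73.7 percentiles of brightness on control arrays, at the 81.0 and 84.8 percentiles after 1 hr, and between the 87.2 and 88.4 percentiles after 2 hr. The 2 hr arrays were close to each other on this measure, and the 3 groups did not overlap.

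Errfi1 was higher after 2 hr on its brightest probe set, whereas after 1 hr its arrays overlapped the controls. On rc_AI169756_s_at the intensity was 52.3, 77.1 and 54.7 on control replicates 1 to 3, 69.7 and 101.6 on 1 hr replicates 1 and 2, and 132.1, 143.8 and 176.5 on 2 hr replicates 1 to 3. All 2 hr arrays stood above every other array, while 1 hr replicate 1 fell below control replicate 2. The log2 means were 5.92 ± 0.31 (SD, n = 3) in controls, 6.39 ± 0.38 (SD, n = 2) after 1 hr and 7.23 ± 0.21 (SD, n = 3) after 2 hr.

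This probe set was 2.48-fold higher after 2 hr than in controls, a log2 difference of 1.31 (SE 0.317), with all 9 pairings higher by 1.71-fold to 3.37-fold. For 1 hr against control the log2 difference was 0.48 (SE 0.355), and 5 of 6 pairings were higher. For 2 hr against 1 hr it was 0.83 (SE 0.355), with all 6 pairings higher. It ranked 55th of 7770 from the top for 2 hr against control. The order of the steps rested on 1 array of the 1 hr group. Without 1 hr replicate 1 the difference was 0.75 for 1 hr against control and 0.56 for 2 hr against 1 hr, and without the 3 arrays of highest top intensity 0.68 and 0.44. Whether the time courses of Sgk1 and Errfi1 differ was not tested.

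The other Errfi1 probe sets were dim and gave a less clear reading. X07266cds_s_at read 29.4, 22.0 and 27.4 on control replicates 1 to 3, 26.9 and 19.8 on the 1 hr arrays, and 29.8, 30.1 and 91.1 on 2 hr replicates 1 to 3. Its 2 hr arrays were all above the controls, but 2 of them by less than 1 intensity unit over control replicate 1, and 2 hr replicate 3 carried the mean log2 difference of 0.74 (SE 0.513). Without that array the difference was 0.20. For 1 hr against control it read -0.18 (SE 0.574).

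M23572_at read 1.9, 4.1 and 27.6 on control replicates 1 to 3, 18.5 and 12.4 on the 1 hr arrays, and 10, 30.9 and 21.1 on the 2 hr arrays. Values were floored at 9.1, so control replicates 1 and 2 count as being at the floor, and the groups overlapped. The 2 hr minus control log2 difference of 0.50 (SE 0.551) depends on that floor, and was 1.53 with a floor at the 5th percentile of all values. With a floor at the 40th percentile the probe set no longer passed the filter, and with the 5S reading as a block the difference was 0.01. Leaving out 1 array at a time gave 0.14 to 1.04. All 4 probe sets passed the filter on low values, which asked for 2 arrays above the floor. All 3 Errfi1 probe sets were on the same side of 0 for 2 hr against control, but the reading of X07266cds_s_at rested on 1 array and that of M23572_at on the floor.

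The order of the arrays inside each group was not shared throughout by the genes. Control replicate 2 was the highest control for both Sgk1 and rc_AI169756_s_at. Among the 2 hr arrays Sgk1 was highest on replicate 1 and lowest on replicate 3, whereas rc_AI169756_s_at was lowest on replicate 1 and highest on replicate 3. Of the 1 hr arrays, replicate 1 was higher for Sgk1 and replicate 2 for rc_AI169756_s_at.

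Several arrays stood apart in ways that the groups do not account for. The highest intensity was over 20000 on 2 hr replicate 3, 1 hr replicate 1 and control replicate 3, and a 5S ribosomal RNA control probe set read under 40 on 2 hr replicate 1 and control replicates 1 and 2. Control replicate 3 also had the highest ratios of 3′ to 5′ signal, a sign of RNA quality. The actin ratio was 2.885 there and 1.042 to 1.679 on the other arrays, and the GAPDH ratio 1.559 there and 0.884 to 1.388 on the others. Without control replicate 3 the 2 hr minus control difference was 1.72 for Sgk1 and 1.24 for Errfi1 rc_AI169756_s_at. Within the arrays of highest top intensity, Sgk1 was higher by 2.03 for 2 hr against control (1 array against 1), and by 1.79 within the other arrays (2 against 2). Within the arrays of low 5S reading the same difference was 1.85 (1 against 2), and within the others 2.11 (2 against 1).

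For rc_AI169756_s_at the 2 hr difference was 1.69 and 1.12 in the first split and 1.06 and 1.54 in the second, in the same order. For 1 hr against control Sgk1 read 1.69 within the arrays of highest top intensity (1 against 1) and 0.89 within the others (1 against 2), and Errfi1 rc_AI169756_s_at 0.35 and 0.68. No 1 hr array had a low 5S reading, so that comparison has a value only within the other arrays, at 1.52 for Sgk1 and 0.62 for rc_AI169756_s_at (2 against 1).

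The brightest probe sets of markers for the cell types of a brain dissection were measured on the same arrays. Snap25 of nerve terminals, Mbp of myelin and S100b of glia were above the floor on all arrays. Of 9 marker lists, the summed intensity of 8 overlapped between 2 hr and control. The endothelial and mural list did not: its 7 measured markers summed to between 1580 and 1958 on 2 hr arrays, against 563 to 1468 on control arrays, with 5 of 7 genes above 0 and 2 below 0 and none at the floor on all arrays. Slc2a1, the glucose transporter of brain capillaries, made up much of that sum. Without it the other 6 markers overlapped, at 469 to 962 on 2 hr arrays against 289 to 662 on control arrays. For 1 hr against control the pituitary list did not overlap, at 306 to 536 against 254 to 276 over 7 markers. Their part in the Sgk1 and Errfi1 results was not tested. In whole tissue, a change in the share of a cell type and a change in RNA per cell cannot be told apart.

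The other genes known to respond to glucocorticoid were read from a list of 42 symbols, of which 22 were measured. The list was drawn up with earlier results of these arrays known, so its direction is not independent evidence. It sets no direction of response for any gene and includes the hormone precursors Crh, Pomc and Avp. Counts above and below are thus no measure of a hormone-like direction. Avp, counted above at 1.56 after 2 hr, was 0.23 without 2 hr replicate 2. After 2 hr 17 of the 22 were above and 5 below the controls, with a median log2 difference of 0.36 against 0.02 over all probe sets. The cell type marker lists, of 3 to 12 genes and also read on brightest probe sets, had medians from -0.68 (blood) to 0.49 (meninges and fibroblast). The choroid and ependymal list stood at 0.39, so the median of 0.36 does not set the glucocorticoid list apart. None passed limma's test with Benjamini-Hochberg adjustment over all probe sets. In that test 0 of 7770 probe sets, 0.0%, passed for 2 hr against control, 139 (1.79%) had an unadjusted p under 0.05, and the smallest adjusted p on the list was 0.733.

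Groups did not overlap, with 2 hr higher, for 4 of the 22 genes (18.2%, beside 2.9% of all probe sets), and for none with 2 hr lower (2.55% of all probe sets). In the small marker lists the share with 2 hr higher ran from 0.0% (astrocyte, for example) to 28.6% (meninges and fibroblast). Leaving out 1 array at a time turned the sign of 10 of the 22 differences. It cannot do so for these 4, whose groups do not overlap, so their constant sign is no further evidence. Gpd1 (AB002558_at), the cytosolic enzyme that links glycolysis to glycerol synthesis, read 143.0, 107.9 and 100.3 on 2 hr arrays, against 39.0, 28.3 and 28.5 on control arrays, a log2 difference of 1.87 (SE 0.362). Nfkbia (X63594cds_at), which retains NF-kappaB in the cytoplasm, read 199.9, 213.5 and 279.3 on 2 hr arrays, against 129.7, 116.2 and 120.2 on control arrays, a log2 difference of 0.91 (SE 0.241). Both had their groups well apart, as Sgk1 did.

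Cebpb (X60769mRNA_at), a basic leucine zipper transcription factor, read 54.6, 55.8 and 57.5 on 2 hr arrays, against 30.1, 39.0 and 5.4 on control arrays. Its log2 difference of 1.35 (SE 0.558) was 0.71 without control replicate 3. That array read under the floor, and the difference was 0.81 with a floor at the 40th percentile and 1.6 with one at the 5th. Slc2a1 (S68135_s_at) read 1080.1, 996.8 and 1340.2 on 2 hr arrays, against 827.6, 805.2 and 273.9 on control arrays, and its log2 difference of 0.99 (SE 0.428) was 0.47 without control replicate 3. Control replicate 3, the array with the highest 3′ to 5′ ratios, was the low array for both, and the part of RNA quality in these differences was not tested.

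After 1 hr the arrays stood above all control arrays for 4 of the 22 genes (18.2%, beside 7.54% of all probe sets), which were Nfkbia, Cebpd, Anxa1 and Il1r1, and below them for 2, Sult1a1 and Crh (5.11% of all probe sets). Of these, Nfkbia alone was also apart after 2 hr, and the Gpd1 arrays overlapped the controls after 1 hr. Some of the gaps after 1 hr were thin. The lower 1 hr array read 153.3 for Cebpd and 28.0 for Anxa1, against 151.0 and 26.8 on the highest control array. For Crh the higher 1 hr array read 22.5, against 22.8 on the lowest control array. Il1r1 was at the floor on 2 control arrays. Nfkbia and Gpd1 are named because their 2 hr and control arrays did not overlap, and the others after their 1 hr values were seen. The log2 difference between 1 hr and control was 1.22 for Nfkbia and 0.06 for Gpd1, beside 1.22 for Sgk1, on shared control arrays. In that comparison 18 of the 22 genes were above and 4 below the controls, with a median of 0.34 against 0.05 over all probe sets. Marker list medians there ran from -0.04 (blood) to 0.43 (choroid and ependymal). None of the 22 passed (limma, Benjamini-Hochberg over all probe sets), among 0 of 7770 (0.0%) overall with 208 at an unadjusted p under 0.05 (2.68%). Between 2 hr and 1 hr 13 of the 22 genes were above 0 and 9 below, with Nfkbia, Cebpd, Anxa1 and Il1r1 among those below. The list had a median of 0.12 against -0.03 over all probe sets. Again 0 of 22 and 0 of 7770 (0.0%) passed in limma, with 215 at an unadjusted p under 0.05 (2.77%).

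**Figure D3:**
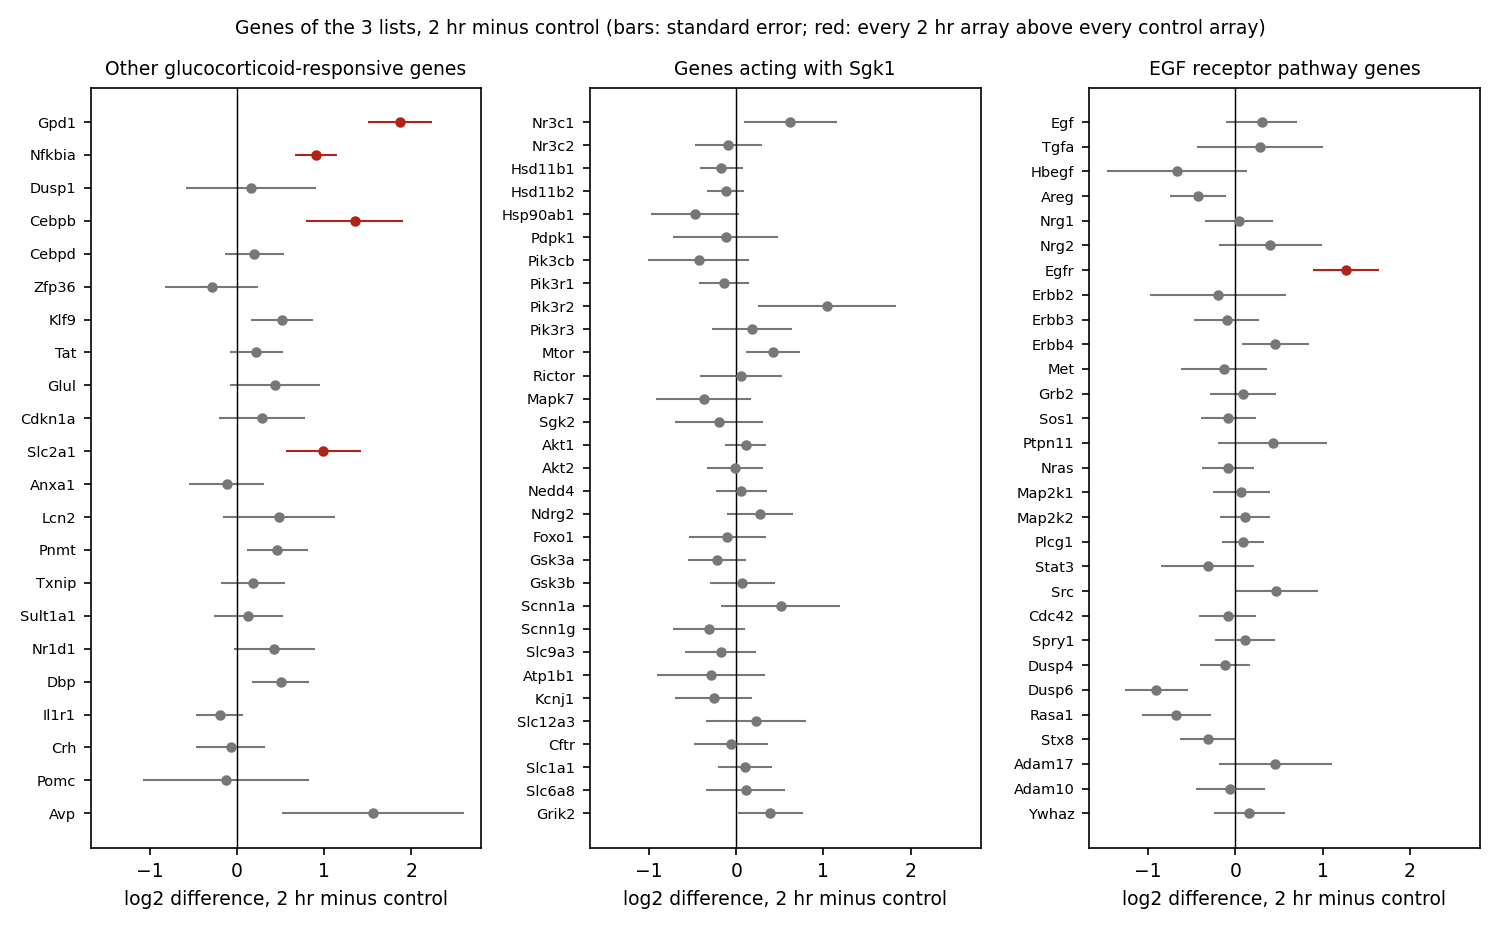
Log2 differences, 2 hr minus control, of the measured genes of 3 lists (brightest probe set of each gene), with bars for the standard error from limma. Red points are genes whose 2 hr arrays all lie above all control arrays, which are Gpd1, Nfkbia, Cebpb and Slc2a1 among the glucocorticoid-responsive genes, none among the genes acting with Sgk1, and Egfr among the EGF receptor pathway genes.

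Among the genes that act with Sgk1, as among all 7770 probe sets tested, no difference was called after 2 hr. Of 49 symbols, 31 were measured, 14 above and 17 below the controls, with a median log2 difference of -0.06. None passed (limma, adjusted over all probe sets, of which 0.0% passed). None had an unadjusted limma p under 0.05 (1.79% of all probe sets), and none had groups without overlap (2.9% of all probe sets with 2 hr higher). At such shares, a count of none among 31 genes does not set this list apart. Standard errors reached 0.789, and leaving out 1 array at a time turned the sign of 19 of the 31 differences. Nr3c1, the glucocorticoid receptor, read a log2 difference of 0.62 (SE 0.533) on rc_AA893618_s_at and 0.06 on its other probe set. The first was 0.30 without control replicate 1 and 1.10 without control replicate 3. Nr3c2, the mineralocorticoid receptor, read -0.09 (SE 0.382), and Hsd11b1, which regenerates active glucocorticoid, -0.17 (SE 0.249). The standard errors of all 3 were near or above the differences.

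Upstream kinases gave similar readings. Mtor read 0.42 (SE 0.308), Pdpk1 -0.12 (SE 0.604), and the phosphatidylinositol 3-kinase subunit Pik3r2 1.04 (SE 0.789). Without control replicate 3 Mtor became 0.17 and Pik3r2 -0.03, and without 2 hr replicate 3 Pdpk1 became 0.24. The related kinases Sgk2, Akt1 and Akt2 read -0.20, 0.11 and -0.01. The ubiquitin ligase Nedd4l, on which Sgk1 acts, was not measured, and Nedd4, a different gene, read 0.06. Among substrates and effectors, Ndrg2 read 0.27 and Foxo1 -0.10. The sodium channel subunits Scnn1a and Scnn1g read 0.51 and -0.31, and the kainate receptor subunit Grik2 0.39 (SE 0.375). All of these groups overlapped.

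Of the EGF receptor pathway, 29 of 49 symbols were measured, 15 above and 14 below the controls after 2 hr, with a median of 0.04. None passed in limma after adjustment over all probe sets, of which 0.0% passed. The receptor itself, Egfr (M37394_at), read 26.0, 30.9 and 45.6 on 2 hr arrays, against 14.7, 10.1 and 17.5 on control arrays, a log2 difference of 1.27 (SE 0.375). It read 11.1 and 9.8 on the 1 hr arrays, within or below the control range. It was the 1 gene of 29 on this list (3.45%) whose 2 hr arrays all lay above the controls, a share near the 2.9% of all probe sets. Its limma adjusted p was 1.0 with an unadjusted p of 0.00721. The probe set is dim, and a floor at the 40th percentile of all values reduced the difference to 0.29.

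Dusp6 (U42627_at), the phosphatase that limits ERK signalling, read 67.4, 147.1 and 84.1 on 2 hr arrays, against 195.5, 143.3 and 198.8 on control arrays, a log2 difference of -0.91 (SE 0.361), and -0.50 on its other probe set. The groups overlapped in 2 hr replicate 2. Rasa1, a GTPase-activating protein for Ras, read -0.68 (SE 0.397), and the ligands Areg, Hbegf and Tgfa -0.43, -0.67 and 0.28. The other receptors Erbb2, Erbb3 and Erbb4 read -0.20, -0.10 and 0.46, and Spry1, another feedback inhibitor, 0.11. None of these passed, and the standard errors over the list lay between 0.240 and 0.805. Rasa1 was -1.04 without 2 hr replicate 1 and -0.43 without 2 hr replicate 2, Areg -0.73 without control replicate 1 and -0.19 without control replicate 3, and Hbegf -1.40 without 2 hr replicate 3 and -0.11 without 2 hr replicate 1. Leaving out 1 array at a time turned the sign of 16 of the 29 differences on the list, those of Tgfa, Erbb2, Erbb3, Erbb4 and Spry1 among them.

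Among 4678 probe sets with 1 gene symbol that lay above the floor on all 8 arrays, the one whose profile came closest to that of Sgk1 was Errfi1 rc_AI169756_s_at. Likeness was measured as the root mean square difference, over the 8 arrays, between log2 values centred on each probe set's own mean, and it was 0.428, against a median of 0.934 over all of them. Next came Psat1 at 0.432, Hes1, a transcriptional repressor of the Notch pathway (D13417_g_at), at 0.447, Gpc3, a heparan sulphate proteoglycan (M22400_at), at 0.474, and Gad2, a GABA-synthesising enzyme (M72422_at), at 0.497. The spread of Sgk1 about its own mean was 0.85 on this scale, so these neighbours tracked it only in part. Sgk1 and Errfi1 were chosen with their values on these arrays known, so the rank of Errfi1 is a description only. Psat1 stood almost as close.

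Closest to Errfi1 rc_AI169756_s_at was Dlgap4, a postsynaptic scaffold protein (U67140_at), at 0.248, followed by Psat1 at 0.328, Myl2, a myosin light chain (X07314cds_g_at), at 0.345, Grb10, an adaptor of receptor tyrosine kinases (rc_AA800686_at), at 0.347, and Mchr1, the melanin-concentrating hormone receptor (AF008650_at), at 0.352. Sgk1 was the 30th from this side. The median over all was 0.751, and the spread of Errfi1 about its own mean 0.617. Dlgap4 read 286.0, 445.3 and 394.1 on 2 hr arrays, against 195.1, 224.9 and 143.0 on control arrays, a log2 difference of 1.00.

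**Figure D4:**
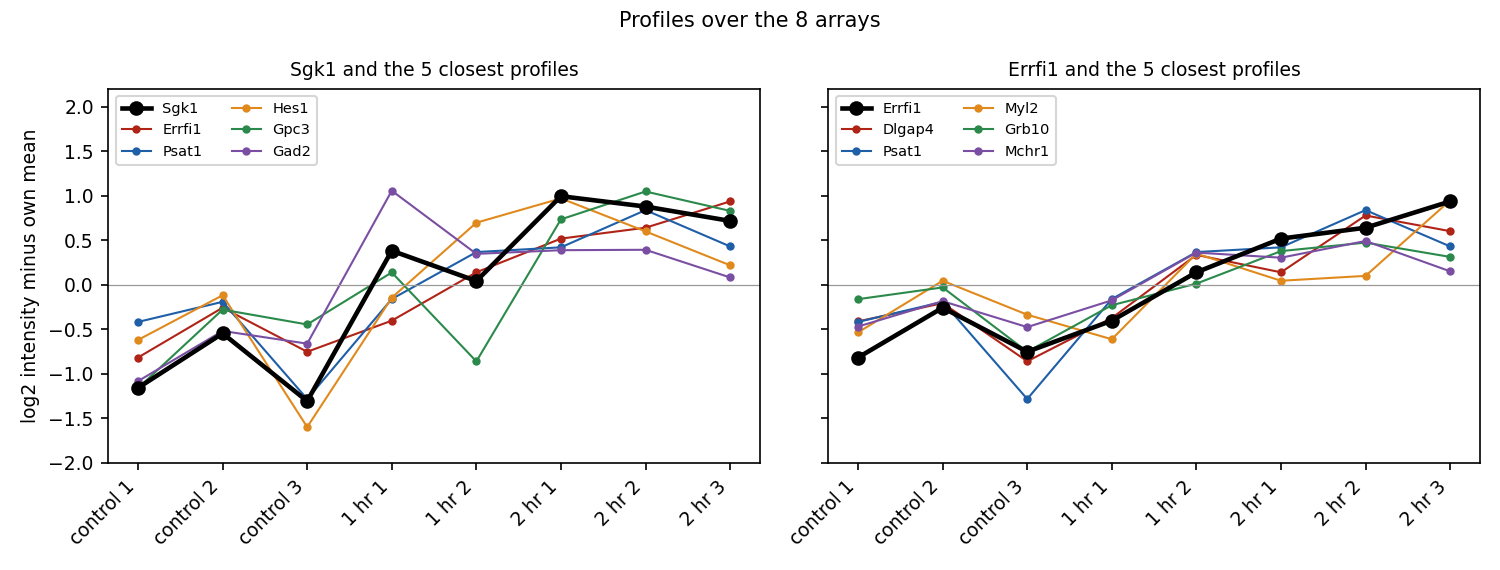
Log2 intensity minus the probe set's own mean on each of the 8 arrays, for Sgk1 (left, black) and Errfi1 rc_AI169756_s_at (right, black) with the 5 closest profiles of each in colour. All control arrays lie below the 2 hr arrays for both black lines, and 1 hr replicate 1 lies above the mean for Sgk1 and below it for Errfi1.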

How the data were processed

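Total RNA of rat whole brain was measured on 8 arrays, 1 per sample. The authors deposited 1 linear intensity per probe set and array (8799 probe sets). No label or file states which software, scaling or detection call made them. Trimmed means (2% at each end) of these intensities differed by at most 0.1% between arrays, so no further scaling was applied. After leaving out 59 control probe sets, a floor was set at 9.1, the 20th percentile of the whole table (3.186 on the log2 scale), log2 was taken, and the 7770 probe sets above the floor on at least 2 arrays were kept. Groups came from the sample titles. Each comparison was fitted with limma 3.58.1 in R 4.3.3 (lmFit, eBayes with trend) on all 8 arrays, two-sided, with Benjamini-Hochberg adjustment over all 7770 and a threshold of 0.05. Standard errors are from this fit.

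Of the probe sets, 7006 had 1 gene symbol, 308 several and 1426 none in the platform annotation, and symbols were updated through gene numbers to RefSeq (GRCr8). List genes rest on their brightest probe set. Named list genes were those passing and, for 2 hr against control, up to 6 without overlap, filled to 4 by unadjusted p, and other pathway members are named for their role, after their values were seen. The members, lists and tests were chosen with earlier results of these data known. No label gives separate animals a number, so the spread between samples may in part be technical, and the number of arrays limits the precision. No pair of arrays shared more than 70 of 8740 values. Only the limma fit, not the floor, was tried on simulated data. The planted differences were larger than those of Sgk1 and Errfi1.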

Additional observations from a re-analysis of the deposited data

How the results depend on the processing

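The 21 alternative settings included other scalings, floors and filters, a pseudocount of 16, blocks and left-out arrays. Over these the 2 hr minus control log2 difference was 1.71 to 2.10 for Sgk1 and 1.11 to 1.48 for Errfi1 rc_AI169756_s_at. Not all of them can move this difference. Other floors, other filters and leaving out a 1 hr array left rc_AI169756_s_at at 1.31. Leaving out 1 array cannot turn the sign where the 2 hr and control groups do not overlap. Between 1 hr and control Sgk1 ranged from 0.89 to 1.45 and rc_AI169756_s_at from 0.21 to 0.75, and for 2 hr against 1 hr from 0.48 to 0.90 and from 0.44 to 1.10. Without the 3 arrays of highest top intensity Sgk1 moved to 0.89 for 1 hr against control and rc_AI169756_s_at to 0.44 for 2 hr against 1 hr; only 1 array was then left in the 1 hr group, taken to vary like the other groups, and the cause was not tested. Leaving out 1 hr replicate 1 or 2 gave rc_AI169756_s_at 0.75 or 0.21 between 1 hr and control, and 0.56 or 1.10 for 2 hr against 1 hr. M23572_at, which did not pass a floor at the 40th percentile or the strict filter, depended on the floor and on the 5S block, with -0.78 for 1 hr against control under the block, and 1.23 with the lower floor. Pik3r2 turned to -0.03 without control replicate 3, in a range up to 1.64 over single arrays left out. The labels give same-numbered arrays no link but the number. Their deviations from the group means correlated at 0.11, -0.09 and 0.29 between 2 hr and control, and 3 of 6 arrays correlated best with their own number. The values were -0.33 and 0.2 between 1 hr and control, and -0.07 and 0.15 between 2 hr and 1 hr. Deviations within such small groups are tied to each other, so these values cannot decide whether the arrays were paired. With the replicate block Sgk1 read 1.87 between 2 hr and control, 1.10 between 1 hr and control and 0.76 between 2 hr and 1 hr. Counts of genes called stayed at 0 in all settings (limma), except without a filter on dim probe sets, where 4 passed for 1 hr against control and 4 for 2 hr against 1 hr, neither Sgk1 nor Errfi1 nor a gene of the 3 lists among them. Dim probe sets near the floor limit what can be said of M23572_at, X07266cds_s_at and Egfr. The same holds for Areg, Erbb2, Erbb4, Hbegf, Tgfa, Rasa1, Il1r1, Cebpb and Pik3r2, each at the floor on 1 or more arrays. Gad2 fell from 1.04 to 0.13 for 2 hr against control with a floor at the 40th percentile.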
